A study of Solanum tuberosum with 12 samples.

Results

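PGSC0003DMT400026261 and PGSC0003DMT400026262 are the 2 potato transcripts that were reported as orthologues of an Arabidopsis Kunitz trypsin inhibitor and as differing between *StRIK*-RNAi and Wild type tuber periderm. They were followed here, singly and summed, in all 12 libraries of the series, as 2 of the 54416 transcripts listed for each library. Their choice rests on the contrast of RNAi with Wild type, so their values in that contrast are given as a description and without a test. Periderm RNA came from freshly harvested tubers of the cultivar Désirée grown in soil, with 3 replicates each of the RNAi lines 9, 12 and 47, in which a stably integrated hairpin construct silences *StRIK*, and of the untransformed Wild type. The plants of a line descend from 1 transformation event, so its 3 libraries share that event. The study compared 6 of the 9 RNAi libraries with the Wild type chosen for low *StRIK*, which its list of transcripts names as all of line 47, replicates 2 and 3 of line 12, and replicate 1 of line 9. Line 9 replicates 2 and 3 and line 12 replicate 1 were not used in that comparison.

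Kunitz inhibitors are small proteins that bind serine proteases such as trypsin and block their active site. In plants they are best known from seeds, tubers and wounded leaves, where they hinder the digestion of plant protein by insects and also restrain proteases of the plant itself. Potato tubers are rich in several families of such inhibitors. StRIK, the potato RS2-INTERACTING KH PROTEIN, carries a KH domain, a fold that binds RNA. Periderm is the corky skin that replaces the epidermis of the tuber and consists mainly of dead suberized phellem over the dividing phellogen.

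The potato annotation names PGSC0003DMT400026261 a cell death marker of *Nicotiana benthamiana* type ("Nb cell death marker") and PGSC0003DMT400026262 a conserved gene of unknown function, and neither name mentions an inhibitor. Their identifiers follow each other. Whether they are neighbouring genes, near-identical copies or transcripts of one locus was not given in the sources used here, and their chromosome, length and sequence were not analysed here. The values are effective counts, which are estimated read counts that the program eXpress corrects for the length available to a fragment. Reads that fit more than 1 transcript are divided among them, so the counts of similar transcripts depend on each other. Their sum depends less on how reads are divided between them, but each transcript has its own length correction. Here the counts were scaled to a common library size (normalized effective counts). Because no lengths were used, the share of one transcript in the sum describes counts and not molecules. No table used here pairs these identifiers with names of periderm, parenchyma or leaf marker genes, so the tissue label was not checked by markers. In bulk tissue, fewer cells of a type and less RNA per cell cannot be told apart.

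Library totals lay between 18650236 and 21585122 effective counts. *StRIK*, summed over its 3 isoforms targeted by the construct, stood at 45.3, 72.2 and 61.0 CPM (counts scaled to a common depth) in replicates 1, 2 and 3 of line 9. The level was 51.1, 42.2 and 37.4 CPM in line 12 and 35.4, 49.5 and 48.8 CPM in line 47, against 88.2, 83.2 and 82.6 CPM in the Wild type. A further predicted isoform, PGSC0003DMT400064735, which the construct does not target, was left out of the sum and had 181 to 322 normalized counts in the RNAi libraries, against 297 to 364 in the Wild type. By the targeted isoforms all 9 RNAi libraries were below all 3 Wild type libraries, as their labels say, but line 9 replicate 2 kept 85.3% of the Wild type mean while line 47 replicate 1 kept 41.8%. The 6 libraries that the study used were the 6 with the least *StRIK* by this measure, but line 12 replicate 1, which was not used, came next with 60.3% of the Wild type mean, against 58.4% in line 47 replicate 2. The 3 Wild type libraries carry lane tag 6 in their file names, as do line 47 replicates 2 and 3, whereas lane tag 7 marks the 7 remaining RNAi libraries. The 3 libraries highest on the first principal component of 22240 transcripts were line 12 replicate 1 (score 72.1), line 9 replicate 2 (43.8) and Wild type replicate 3 (42.4). The component was computed without the Kunitz and *StRIK* transcripts and held 35.8% of the variance. The other 9 libraries scored between -52.9 and 19.95, with line 9 replicate 1 next at 19.95 and then line 9 replicate 3 at -2.37. No clear gap marks the 3 off, and the cut at 3 was made after the data had been seen.

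Both Kunitz transcripts were more abundant in every RNAi library than in any Wild type library. The first, PGSC0003DMT400026261, had 1098, 3190 and 2448 normalized effective counts in line 9, 3840, 4627 and 7037 in line 12, and 3811, 2894 and 2135 in line 47, against 190, 269 and 509 in the Wild type. The second, PGSC0003DMT400026262, had 1635, 1807 and 3185 in line 9, 2717, 9209 and 12318 in line 12, and 8428, 4741 and 3535 in line 47, against 413, 563 and 378 in the Wild type. The highest values of both belonged to line 12 replicate 3 and the lowest RNAi values to line 9 replicate 1. Summed, the pair gave 2733, 4996 and 5632 in line 9, 6557, 13837 and 19354 in line 12, and 12239, 7635 and 5670 in line 47, against 603, 832 and 887 in the Wild type. Even the lowest RNAi sum was 3.08 times the highest Wild type sum. Such a separation upward of all 9 RNAi from all 3 Wild type libraries was met by 272 of the 38364 transcripts tested (0.709%). Since the pair was chosen on this contrast, its place among them is no finding.

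**Figure D1:**
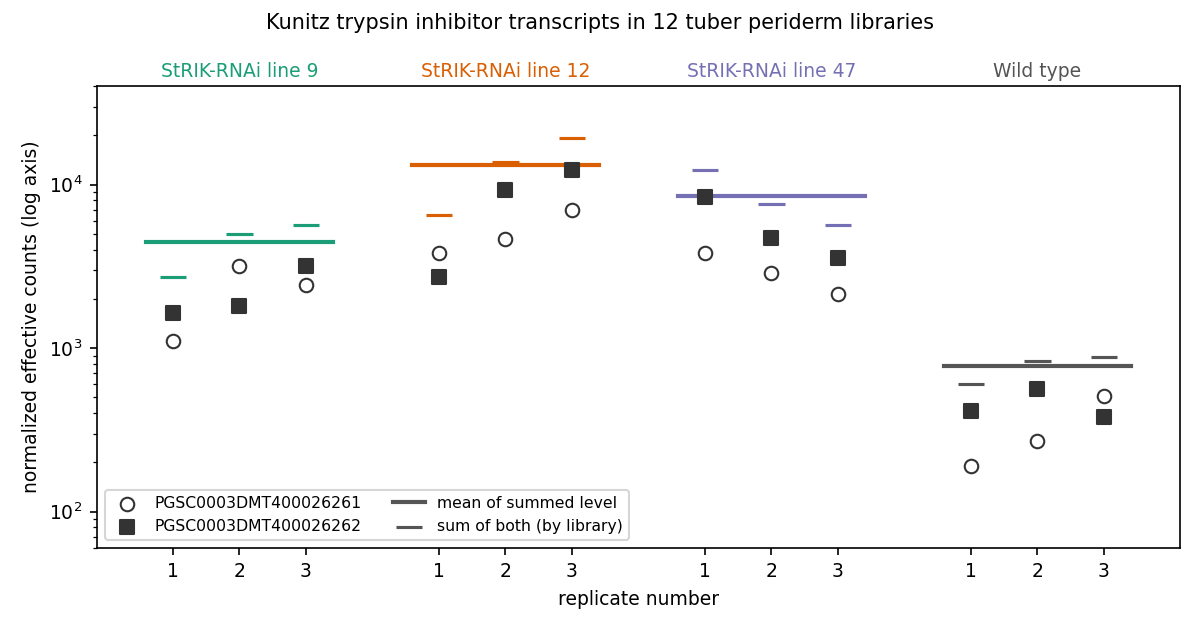
Normalized effective counts (log axis) of PGSC0003DMT400026261 (open circles), PGSC0003DMT400026262 (filled squares) and their sum (short bars) in each library, by replicate number for the RNAi lines 9, 12 and 47 beside Wild type. Long bars are the group means of the sum, and the 9 RNAi sums (2733 to 19354) lie above the 3 Wild type sums (603 to 887).

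The summed level averaged 4454 ± 1524 in line 9, 13250 ± 6419 in line 12 and 8515 ± 3372 in line 47, against 774 ± 151 in the Wild type (SD, n = 3 each). These means were 5.75, 17.1 and 10.998 times the Wild type mean. Over all 9 RNAi libraries the fitted log2 fold change was 3.42 (SE 0.53) for PGSC0003DMT400026261, 3.55 (SE 0.68) for PGSC0003DMT400026262 and 3.50 (SE 0.57) for their sum. With the 6 RNAi libraries of the study it was 3.47 (SE 0.58), 3.87 (SE 0.61) and 3.72 (SE 0.58) in the same order. The 3 RNAi libraries that the study left aside also lay above the Wild type, with a mean sum of 5729 ± 785 (SD, n = 3) or 7.40 times the same Wild type mean. Because they share the Wild type libraries with the first contrast, they give no separate evidence. For PGSC0003DMT400026262 these 3 libraries alone gave a log2 fold change of 2.50, which is lower than over all 9. Within lane tag 6, where line 47 replicates 2 and 3 can be set against the Wild type, the log2 fold change of the sum was 3.12. Without the 3 libraries highest on the first component it was 3.73.

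The RNAi libraries differed widely in how much Kunitz transcript they held. Their sums covered a 7.08-fold range, with a coefficient of variation of 60.8% in the 9 RNAi libraries and 19.4% in the 3 of the Wild type. The RNAi value pools 3 lines with different means. Singly, the coefficient of variation of PGSC0003DMT400026262 was 71.6% in the RNAi libraries and 21.8% in the Wild type. For PGSC0003DMT400026261 it was 49.3% and 51.5%, so that transcript did not vary more in the RNAi libraries. On the log2 scale the SD over the 9 RNAi libraries was 0.76 for PGSC0003DMT400026261 and 1.04 for PGSC0003DMT400026262, against a median of 0.27 over all 22245 transcripts with a mean of at least 50 normalized counts. That placed their spread above 94.0% and 97.6% of these transcripts. Of the variation in the log2 sum among the RNAi libraries, 42.3% lay between replicates of the same line and 57.7% between the lines. The coefficient of variation within a line was 34.2% in line 9, 48.4% in line 12 and 39.6% in line 47, so replicates of 1 line differed by 2.06-fold to 2.95-fold between their extremes. The ranges of lines 12 and 47 overlapped, and the highest sum of line 9 (5632) lay just under the lowest of line 47 (5670) and under the lowest of line 12 (6557).

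By mean, line 9 held the least Kunitz transcript and line 12 the most, and no difference of the pair among lines passed the threshold of edgeR after adjustment over all transcripts. Differences among lines were not used to choose the pair, and they were tested in one fit of all 12 libraries. By the quasi-likelihood F test of edgeR, Benjamini-Hochberg adjusted over all transcripts, the adjusted p among the 3 lines was 0.418 for PGSC0003DMT400026261, 0.305 for PGSC0003DMT400026262 and 0.300 for the sum. The same test called 16 of 38364 transcripts (0.0417%), and 4331 had an unadjusted p under 0.05. The unadjusted p values of edgeR's quasi-likelihood test were 0.0359 for the first transcript, 0.00818 for the second and 0.00753 for the sum. DESeq2 put the second transcript and the sum just past the threshold, at adjusted p = 0.0480 and 0.0499, and called 679 transcripts, whereas limma-voom gave an adjusted p of 0.356 and 0.343.

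In the fit without a lane term, the widest margin of the 3 pairs lay between lines 9 and 12. For the sum, the log2 fold change of line 9 over line 12 was -1.57 (SE 0.41), with an adjusted p of 0.318 by the quasi-likelihood F test of edgeR (Benjamini-Hochberg adjusted), in a comparison that called 0.0365% of transcripts. PGSC0003DMT400026262 contributed more of that gap, with -1.87 (SE 0.49), than PGSC0003DMT400026261, with -1.20 (SE 0.42), and their adjusted p values by the same edgeR test were 0.318 and 0.420. DESeq2 gave -1.86 for PGSC0003DMT400026262 with an adjusted p of 0.0213. Line 47 over line 9 gave 1.33 (SE 0.48, edgeR adjusted p = 0.306) for PGSC0003DMT400026262 and 0.39 (SE 0.42, edgeR adjusted p = 0.724) for PGSC0003DMT400026261, in a comparison that called 0.0209% of transcripts. Line 47 over line 12 gave -0.64 (SE 0.40, edgeR adjusted p = 0.753) for the sum, where 0.0235% were called. For PGSC0003DMT400026262 that last difference was -0.54 (SE 0.48) and turned to 0.06 with the lane tag as a covariate and to 0.07 when both lane tag 6 libraries of line 47 were left out. Line 47 over line 9 for PGSC0003DMT400026262 likewise moved to 1.93 under both of these alternatives, which is more than its gap between lines 9 and 12. Only line 47 carries both lane tags, so in each alternative its level rests on its replicate 1 alone. These alternatives are thus not separate checks. Lines 9 and 12 carry only lane tag 7 and the Wild type only lane tag 6. Of the alternatives run, only DESeq2 placed a line difference of the pair past the threshold.

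**Figure D2:**
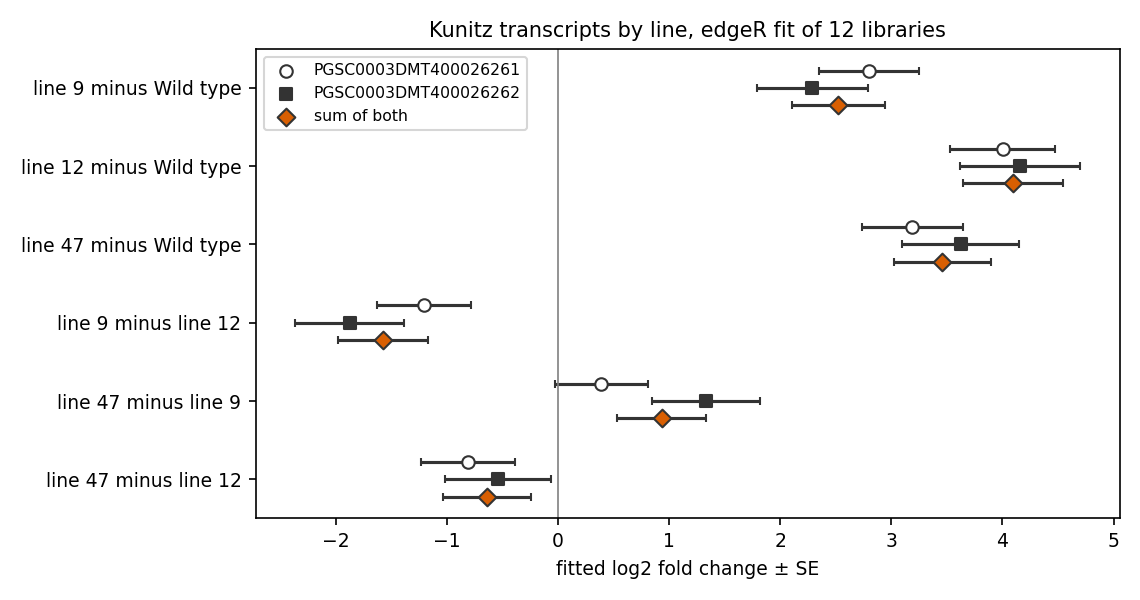
Fitted log2 fold changes with their SE (horizontal bars) from the edgeR fit of 12 libraries, for PGSC0003DMT400026261 (open circles), PGSC0003DMT400026262 (filled squares) and their sum (diamonds). All 3 lines lie above the Wild type (2.29 to 4.16), line 12 lies highest, and the line differences run between -1.87 and 1.33.

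The balance between the pair was the second measure. PGSC0003DMT400026262 made up 59.8%, 36.2% and 56.5% of the summed effective counts in replicates 1, 2 and 3 of line 9. It made up 41.4%, 66.6% and 63.6% in line 12 and 68.9%, 62.1% and 62.3% in line 47, against 68.5%, 67.7% and 42.6% in the Wild type. In 9 libraries the second transcript was thus the more abundant by counts, at 56.5% to 68.9%, and in 3 the first was, with the second at 36.2% to 42.6%. These 3 were line 9 replicate 2, line 12 replicate 1 and Wild type replicate 3, the same libraries that scored highest on the first component. The cut at 3 on that component was made after the data had been seen, so the match is only a description. Line 9 replicate 1, which scored next, had a share of 59.8%. The 95% Wilson intervals were narrow, from 34.9% to 37.4% in line 9 replicate 2 and from 39.3% to 46.0% in Wild type replicate 3, and they cover counting error only. Whether what raises the first component in the 3 libraries also moved the share was not tested. The sums of these 3 libraries ran between 887 in the Wild type library and 6557 in line 12 replicate 1. That range includes the difference between RNAi and Wild type on which the pair was chosen.

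**Figure D3:**
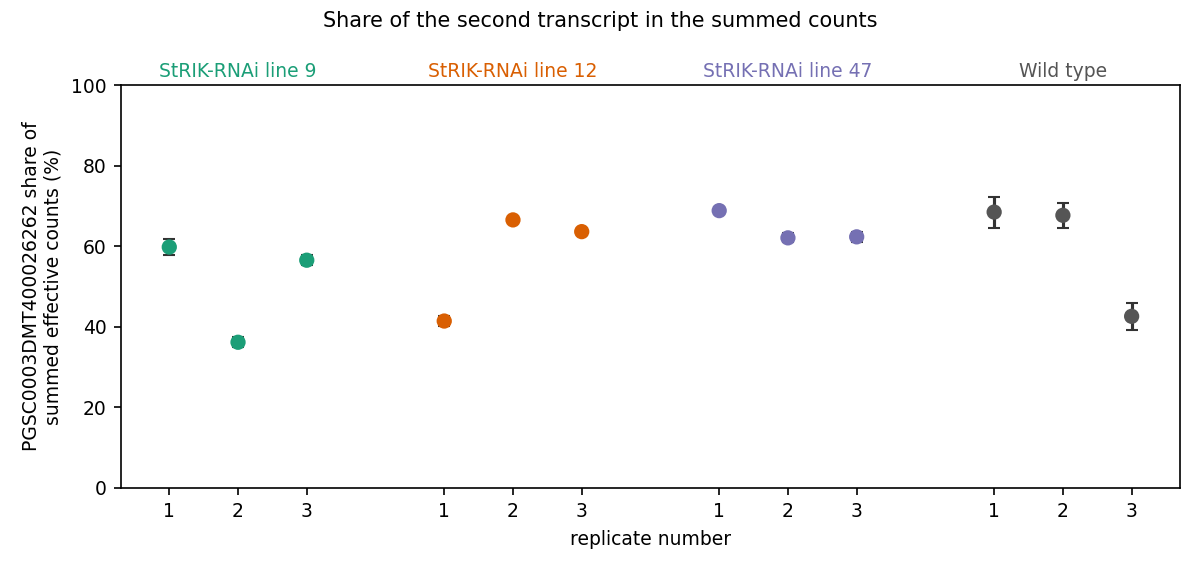
Share of PGSC0003DMT400026262 in the summed effective counts of both Kunitz transcripts (percent) in each library, with 95% Wilson intervals, which are often smaller than the points. Line 9 replicate 2, line 12 replicate 1 and Wild type replicate 3 lie between 36.2% and 42.6% and the other 9 libraries between 56.5% and 68.9%.

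The share did not separate RNAi from Wild type. It averaged 57.5% ± 11.3 in the 9 RNAi libraries and 59.6% ± 14.7 in the 3 Wild type libraries (SD), a difference of -2.11 percentage points (two-sided exact permutation test, p = 0.791, where 220 assignments allow no p below 0.00455). The sign of this difference was not stable. With the 6 RNAi libraries of the study it was 4.28 points (exact permutation p = 0.607), and it was also positive when Wild type replicate 1 (2.34), Wild type replicate 2 (1.94) or line 9 replicate 2 (0.56) was left out. Among the lines the mean share was 50.8% ± 12.8 in line 9, 57.2% ± 13.7 in line 12 and 64.4% ± 3.83 in line 47 (SD, n = 3 each), with an exact permutation p of 0.336 over 1680 assignments. Between replicates of a line lay 72.6% of its variation. With 3 lines of 3 replicates most of the variation lies there even where lines do not differ. So while the pair stood at a multiple of the Wild type level in each line, with PGSC0003DMT400026261 at 6.96, 16.0 and 9.13 times and PGSC0003DMT400026262 at 4.89, 17.9 and 12.3 times the Wild type mean in lines 9, 12 and 47, its proportions covered overlapping ranges in RNAi (36.2% to 68.9%) and Wild type (42.6% to 68.5%).

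The relation to *StRIK* was examined within the 9 RNAi libraries, because RNAi and Wild type libraries form separate clusters. The study chose the pair from the RNAi libraries with the least *StRIK*, so that choice can itself favour an inverse relation here. PGSC0003DMT400026262 averaged 6644 normalized counts in the 6 libraries of the study and 2569 in the 3 not used. The 3 libraries with the least *StRIK* (35.4 to 42.2 CPM) held the 3 highest sums, 12239 in line 47 replicate 1, 19354 in line 12 replicate 3 and 13837 in line 12 replicate 2. Line 9 replicate 1 broke the order most clearly, with the fourth lowest *StRIK* (45.3 CPM) and the lowest sum (2733). Over all 9 libraries Pearson's r between log2 *StRIK* and the log2 sum was -0.61 (permutation p = 0.0816) and Spearman's rho was -0.65 (permutation p = 0.0666). Adjusted over the 4 relations computed these were 0.109 and 0.0887, so the inverse relation was not past the threshold. Without line 9 replicate 2 and line 47 replicate 1, the 2 libraries farthest from the median of *StRIK*, r was -0.57 (permutation p = 0.169). Within the 7 libraries of lane tag 7 it was -0.61 (permutation p = 0.146), and after centring each line on its own mean it was -0.28 (permutation p = 0.495). Without line 9 replicate 1 alone r was -0.86 (permutation p = 0.00531), so 1 library decides on which side of the threshold the relation falls. The 3 replicates of a line are not independent of each other in origin, and the p values count them as if they were.

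The transcripts differed in this respect. PGSC0003DMT400026261 had r = -0.32 (permutation p = 0.407) and rho = -0.35 (permutation p = 0.359). For PGSC0003DMT400026262 r was -0.74 (permutation p = 0.0213, adjusted p = 0.0426) and rho was -0.67 (permutation p = 0.0589, adjusted p = 0.0887). Adjusted over the 3 relations of level alone, without the share, which was added later, the permutation p of its r was 0.0638 and did not pass the threshold. Without the 2 libraries farthest from the median of *StRIK* its r was -0.62 (permutation p = 0.130), and within lines -0.53 (permutation p = 0.157), so that relation rests on few libraries. Leaving out line 9 replicate 2, line 12 replicate 3 or line 47 replicate 1 gave r = -0.67, -0.68 and -0.70 with permutation p = 0.0687, 0.0630 and 0.0530. The difference between these correlations was not tested as such.

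The share of PGSC0003DMT400026262, a relation added after the data had been seen, was lower where *StRIK* was higher among the RNAi libraries. It was 63.6% to 68.9% in the 3 libraries with the least *StRIK* and 36.2% and 56.5% in the 2 with the most. Spearman's rho was -0.92 (permutation p = 0.00131, adjusted p = 0.00525) and Pearson's r was -0.79 (permutation p = 0.0130, adjusted p = 0.0426). After centring each line on its own mean r was -0.79 (permutation p = 0.0139 over 216 arrangements), with a negative slope in all 3 lines, and in lane tag 7 it was -0.83 (permutation p = 0.0250). Without line 9 replicate 2 and line 47 replicate 1, rho was -0.82 (permutation p = 0.0341) and r was -0.48 (permutation p = 0.285). Without line 9 replicate 2 alone r was -0.60 (permutation p = 0.122), and without line 47 replicate 1 alone it was -0.75 (permutation p = 0.0352). Pearson's r thus depended on which libraries were kept. When line 9 replicate 2 and line 12 replicate 1, the highest RNAi libraries on the first component, were both left out, r was -0.86 (permutation p = 0.0155, n = 7). The order did not extend to the Wild type, where *StRIK* was at its full level of 82.6 to 88.2 CPM and the share was 42.6% in replicate 3 but 67.7% and 68.5% in the others.

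**Figure D4:**
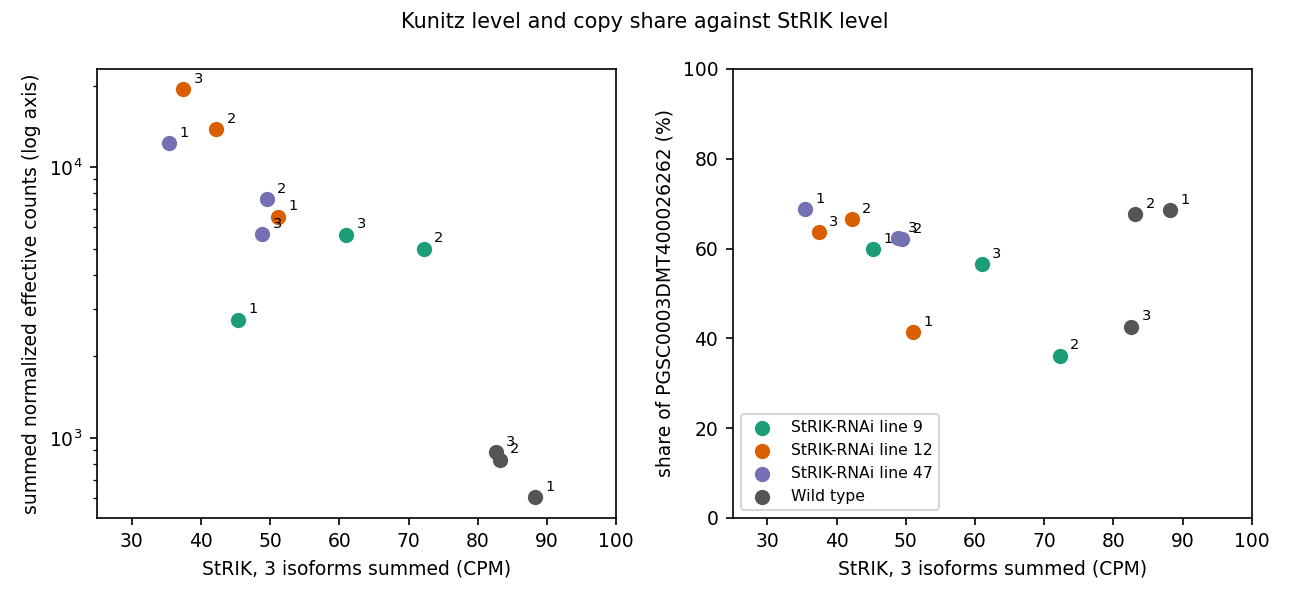
Summed Kunitz level (left, normalized effective counts, log axis) and share of PGSC0003DMT400026262 (right, percent) against the StRIK level (CPM, sum of 3 isoforms), each point 1 library with its replicate number, coloured by RNAi line or Wild type. In the RNAi libraries lower StRIK tended to go with higher sums, but r = -0.61 did not pass the threshold, and line 9 replicate 1 had the lowest sum (2733). Shares were higher where StRIK was lower (rho = -0.92), while 2 of the 3 Wild type libraries combine full StRIK with shares of 67.7% and 68.5%.

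Transcripts with identifiers next to the pair were looked at as a group, because such identifiers often lie close together in the genome, although their positions were not analysed here. Of 20 identifiers from 10 below to 10 above, 12 are listed, 7 passed the count minimum and 4 had a mean above 50 in the RNAi libraries. In the comparison of the 9 RNAi with the 3 Wild type libraries the quasi-likelihood F test of edgeR (Benjamini-Hochberg adjusted) called 0 of the 7, beside 15 of all transcripts (0.0391%). Of the 7, PGSC0003DMT400026257 and PGSC0003DMT400026260 had an unadjusted p under 0.05 in that edgeR test (0.00393 and 0.000164), as had 2583 of all 38364 transcripts. DESeq2, which called 107 of all transcripts, called 1 of the 7, PGSC0003DMT400026260, and limma-voom called 0. PGSC0003DMT400026260, for which no annotation was used here, had 1148, 1199 and 918 normalized counts in line 9, 2382, 1704 and 1777 in line 12, and 1289, 1143 and 1195 in line 47, against 386, 371 and 710 in the Wild type. All 9 RNAi libraries were above all Wild type libraries, as for 0.709% of all transcripts tested, and line 12 was again the highest line. Its log2 fold change was 1.53 (SE 0.30), with an adjusted p of 0.185 by edgeR's quasi-likelihood test. PGSC0003DMT400026257 was at 102 to 433 (median 319) in the RNAi libraries, against 76.8, 134 and 141 in the Wild type, so the ranges overlapped. In contrast, PGSC0003DMT400026255 and PGSC0003DMT400026256 had log2 fold changes of -0.02 and -0.22 (edgeR adjusted p = 0.987 and 0.809). Over all 12 libraries PGSC0003DMT400026260 followed the first Kunitz transcript (r = 0.92) and the second (r = 0.79), and over the 9 RNAi libraries r was 0.61 and 0.33. These are descriptions over libraries that share the genotype difference, and whether reads are shared among the 3 transcripts is not known.

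The patterns most like that of the pair were looked up over all libraries and over the RNAi libraries alone. PGSC0003DMT400026261 and PGSC0003DMT400026262 themselves correlated at r = 0.92 over 12 libraries and 0.77 over the 9 RNAi libraries. Over 12 libraries the closest pattern to the sum among 22243 other transcripts was that of PGSC0003DMT400014170 (r = 0.95), which had a much smaller range, at 147 to 229 normalized counts in the RNAi libraries against 125.63 to 148 in the Wild type. The 5 closest had r between 0.89 and 0.95. The most opposite was PGSC0003DMT400054501, annotated as Transducin, a WD-repeat protein (r = -0.96), followed by PGSC0003DMT400064730, 1 of the *StRIK* isoforms that the construct targets (r = -0.94). The pair was chosen as higher in RNAi and the construct lowers *StRIK*, so an inverse relation over 12 libraries was given beforehand. The Transducin transcript had 168 to 249 counts in the RNAi libraries, against 369 to 474.5 in the Wild type. Among the transcripts that the study listed, an RNase H family protein, PGSC0003DMT400016670, was closest (r = 0.89), at 67.9 to 125 in the RNAi libraries against 13.5 to 41.7 in the Wild type. That list was chosen on this same contrast. Over the 9 RNAi libraries the closest was PGSC0003DMT400000263 (r = 0.97) and the most opposite PGSC0003DMT400004457 (r = -0.96). The *StRIK* isoform PGSC0003DMT400064730 was at r = -0.77 there, with rank 21531 of 22243. The targeted isoforms PGSC0003DMT400064729 and PGSC0003DMT400064731 were at -0.60 and -0.43, and the untargeted PGSC0003DMT400064735 was at -0.54. The RNase H transcript was at 0.53. The dehydrin PGSC0003DMT400025812, a protein of drying tissues, was the closest of the study's list (r = 0.68) with rank 2061.

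Other listed transcripts of protein breakdown and defence showed different patterns across the lines. PGSC0003DMT400024552, placed in the cystatin/monellin superfamily, which includes inhibitors of cysteine proteases, had 8.50, 5.43 and 1.96 normalized counts in line 9, 38.7, 15.8 and 46.5 in line 12, and 57.2, 46.2 and 54.4 in line 47, against 5.19, 0.99 and 4.16 in the Wild type. Line 9 was near the Wild type and lines 12 and 47 were above both. Its difference among lines had an adjusted p of 0.105, and line 47 over line 9 gave a log2 fold change of 3.297 (SE 0.51) with an adjusted p of 0.0865, both by the quasi-likelihood F test of edgeR (Benjamini-Hochberg adjusted). An F-box transcript, PGSC0003DMT400040325, of a family that marks proteins for degradation, was at 0 to 6.30 in the RNAi libraries, against 16.6, 13.9 and 19.8 in the Wild type. The Ulp1 protease transcript PGSC0003DMT400049320, of a family that removes SUMO from proteins, was at 0 to 7.65 against 0 in all 3 Wild type libraries, and PR-1, PGSC0003DMT400013091, a marker of pathogen defence, at 0 to 6.37 against 0. A wound-responsive family transcript, PGSC0003DMT400049546, was at 954 to 2680 (median 1158) in the RNAi libraries, against 2707, 3153 and 1547 in the Wild type. All 5 were listed on the RNAi contrast, so these values are descriptions, and edgeR's quasi-likelihood test called 0 of the 5 among the lines. Of the 5, 3 had an unadjusted p under 0.05 in that edgeR test, as had 4331 of all 38364 transcripts. They were the cystatin-like transcript (edgeR unadjusted p = 0.000120), the wound-responsive transcript (0.0179) and the Ulp1 transcript (0.0256). DESeq2, which called 679 of all transcripts, called 1 of the 5, the cystatin-like one, and limma-voom called 0.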

How the data were processed

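The authors checked reads with FastQC 0.11.2, mapped them with Bowtie2 to the potato transcriptome and ran eXpress 1.5.1 (tools per the labels' processing notes, which also list Cufflinks), and deposited effective counts, which are estimated counts per transcript and not normalized. Groups and replicates came from the labels. Here counts were rounded, transcripts with at least 10 counts were kept (38364 over the 12 libraries), and edgeR 4.0.16 (TMM, glmQLFit, glmQLFTest, Benjamini-Hochberg, threshold 0.05) was run in R 4.3.3. Normalized values refer to a library of 19876858 counts, the mean after TMM. The sum of both transcripts was tested by replacing the 2 with their sum. *StRIK* relations used log2 CPM with a pseudocount of 0.5 and two-sided exact permutation of pairings, in Python 3.11.15 with scipy 1.17.1. Likeness was Pearson's r of log2 normalized counts plus 1.

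The members and lists were chosen with earlier results of these data known. Named transcripts were both members, the *StRIK* isoforms, the 5 most and 3 least similar over 12 and over 9 libraries (in part given as ranges), the 5 most similar of the study's list, its other proteolysis, defence and wound transcripts, and identifiers 10 below to 10 above. The fits were repeated with limma-voom (limma 3.58.1) and DESeq2 1.42.0, and with RLE factors, other filters, a replicate block, the lane tag, subsets of libraries and each library left out. Leaving out the 3 libraries highest on the first component, the share with *StRIK*, and the alternatives for the relations of each transcript singly to *StRIK* were added after the data had been seen. On simulated counts with 200 transcripts changed in line 12, the test among lines recovered 28.7% at a log2 fold change of 1 and 88.8% at 2, of either sign (37939 tested, 6 false calls among 139). The changed transcripts were drawn at random from the well-counted ones, and the simulated libraries were independent. Both Kunitz transcripts varied more than most transcripts, so these rates may be too high for the pair. No sequence was analysed here, since 0 identifiers matched the RefSeq table used. The authors' own tests were not used.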

Additional observations from a re-analysis of the deposited data

How the results depend on the processing

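Of 552 values recomputed for 28 results, 496 were scored as the same. For tested results that means an unchanged direction and side of the threshold. For counts of called transcripts and untested fold changes it allows a limited change in size, such as from 16 to 22 calls among lines. The Kunitz log2 fold changes over Wild type were positive in each alternative, between 3.15 and 3.91 for PGSC0003DMT400026261, 3.28 and 3.73 for PGSC0003DMT400026262 and 3.25 and 3.61 for their sum over the 9 RNAi libraries with 1 library left out, and the value of PGSC0003DMT400026262 was 2.50 with the unused RNAi libraries only. The test among lines passed the threshold only with DESeq2, at an adjusted p of 0.0480 for PGSC0003DMT400026262 and 0.0499 for the sum. Across the other alternatives, edgeR with 1 library left out gave 0.126 to 0.552 and 0.155 to 0.504. DESeq2 gave log2 fold changes of -1.86 and -1.56 for line 9 over line 12, both past its threshold. Line 47 over line 12 for PGSC0003DMT400026262 was reversed at 0.061 with the lane tag as a covariate and at 0.071 without the lane tag 6 libraries of line 47. Under these alternatives line 47 over line 9 was 1.93 for PGSC0003DMT400026262, against 1.33 without them. Both alternatives rest on line 47 replicate 1 alone and are not separate checks. The cause was not tested.

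Counts of called transcripts moved most. DESeq2 called 679 among lines, 280 for line 9 over line 12, 525 for line 47 over line 9 and 169 for line 47 over line 12, against 16, 14, 8 and 9 with edgeR. The lane tag as a covariate gave 10, 9, 4 and 5 in that order, leaving out the lane tag 6 libraries of line 47 gave 3, 6, 1 and 1, and leaving out the 3 libraries highest on the first component gave 60, 28, 24 and 14. With 1 library left out they ranged from 10 to 47, 6 to 22, 4 to 37 and 5 to 39. The count among lines was 47 without line 47 replicate 1, 29 without line 9 replicate 2, 25 without Wild type replicate 3 and 10 without line 12 replicate 2.

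The share difference between RNAi and Wild type was 4.28 points with the 6 RNAi libraries of the study and ran between -10.6 and 2.34 with 1 library left out. Pearson's r of the sum with *StRIK* was -0.77 with isoform PGSC0003DMT400064730 alone (permutation p = 0.0146) and between -0.86 and -0.49 with 1 library left out. For PGSC0003DMT400026262 it was -0.67 with the 6 RNAi libraries of the study, -0.65 without the libraries highest on the first component, and between -0.91 and -0.67 with 1 library left out. For the share it was -0.72 with the 6 RNAi libraries of the study (permutation p = 0.101) and between -0.88 and -0.60 with 1 library left out.

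The replicate numbers did not pair the libraries. Correlations of deviations between libraries of the same number ran between -0.57 and 0.59 over 18 pairs, 5 of them above 0.1, and 0 of 12 libraries correlated best with their own number. With the replicate number as a block the adjusted p among lines was 0.581 and 0.518 for the 2 transcripts and 0.498 for the sum, and the calls were 11 among lines, 5 for line 9 over line 12, 8 for line 47 over line 9 and 6 for line 47 over line 12.

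Depth limits little for the Kunitz pair, whose sums rest on 581 to 17493 counts a library, but 3 replicates a line and a spread of up to 2.95-fold within a line do. A transcript listed at 0 had no counts there after rounding, but its expected count can have been up to 3.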
